A study of Mus musculus with 9 samples.

Results

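The genes described here are integrins and extracellular matrix genes of the embryonic mouse cortex. A list of 50 symbols was matched to the gene IDs of a count table, and all 50 were found among its 53379 IDs. The list holds 16 matrix receptors, which are 10 alpha integrin chains, 5 beta integrin chains and dystroglycan, and 34 genes of secreted matrix proteins. A filter on low counts kept 17760 genes for testing. Of the list, 44 genes passed it, 14 receptors and 30 matrix genes.

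Integrins are pairs of an alpha and a beta chain in the cell membrane. They bind matrix proteins outside the cell and link them to actin through talin, kindlin and focal adhesion kinase inside it, while dystroglycan (Dag1) binds laminin through its sugar chains. In the developing cortex the apical progenitors (radial glia) are anchored by such receptors to the basement membrane beneath the meninges, a sheet of laminins, type IV collagens, nidogens and perlecan. The space between cells holds a softer matrix of hyaluronan, lecticans and tenascin.

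The RNA came from GFP-positive cells that were sorted from the cortex of C57BL/6 embryos. Plasmids for short hairpin RNAs (shRNAs) were electroporated in utero on embryonic day E13.5, and cells were taken 48 hours later, on E15.5. The circSlc45a4 knockdown group received a mix of 3 shRNAs against circSlc45a4, a circular RNA of the Slc45a4 gene. The Slc45a4 mRNA knockdown group received a mix of 2 shRNAs against the linear mRNA, and the scramble group received 1 scrambled sequence. Each group has 3 libraries, given as biological replicates, and the labels do not say how many embryos went into each. With 1 control sequence, an effect of the target and an effect of the hairpin sequences cannot be told apart. Sorted cells carry the plasmid and its GFP, so progenitors and the neurons born from them are read together. In such bulk samples, fewer cells of a type and less RNA per cell cannot be told apart.

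Total counts ran between 21073174 and 45469298 per library. Values are CPM, which are read counts scaled to library size. Where a library has no read of a gene, up to 3 counts remain possible, or 0.0671 CPM at the greatest and 0.143 CPM at the smallest depth. Fold changes are given on the log2 scale ± SE, and levels as CPM. The targeted gene Slc45a4 had 25.4, 25.3 and 24.7 CPM with circSlc45a4 knockdown, 13.3, 18.5 and 17.4 CPM with Slc45a4 mRNA knockdown and 31.4, 33.6 and 34.0 CPM with scramble. It was lower than scramble in both knockdowns, at a log2 fold change of -0.39 ± 0.12 (adjusted p = 0.0245) with circSlc45a4 knockdown and -1.01 ± 0.12 (adjusted p = 0.000108) with Slc45a4 mRNA knockdown. The first call was lost with the Xist level as a covariate (adjusted p = 0.581) and without any circSlc45a4 knockdown replicate or scramble replicate 2 or 3. PolyA selection does not retain circular RNA, so circSlc45a4 itself was not read. The female-specific RNA Xist, which coats the inactive X chromosome, had 635, 265 and 428 CPM with circSlc45a4 knockdown, 1550.0, 637 and 0.194 CPM with Slc45a4 mRNA knockdown and 0.239, 0.0648 and 0.0618 CPM with scramble. Female cells were thus present in all 3 circSlc45a4 knockdown libraries and in replicates 1 and 2 of the Slc45a4 mRNA knockdown, while the scramble libraries were at or near the floor. The Y chromosome gene Ddx3y had 20.0, 37.1 and 28.5 CPM, 0, 21.9 and 39.1 CPM, and 41.6, 38.0 and 28.3 CPM in the same order of groups. Male cells were thus present in every library but replicate 1 of the Slc45a4 mRNA knockdown, where no read of Ddx3y was counted. The mix of sexes therefore moves with the groups, and calls lost with the Xist covariate are named beside each gene.

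After circSlc45a4 knockdown, 15 of the 44 tested genes were higher and 3 were lower than with scramble at a Benjamini-Hochberg adjusted p under 0.05 (edgeR's quasi-likelihood test), which is called a change below. This is 40.9% of the 44, against 27.1% of all tested genes called in either direction (14.1% higher and 13% lower). The higher ones were Itga2, Itga5, Itga6, Itga9, Itgb1, Itgb8, Lamb2, Col4a5, Hspg2, Tnc, Bcan, Hmcn1, Ltbp2, Cemip and Sparc, and the lower ones were Itga3, Lamc1 and Col4a1. Of these changes, 10 rises and 1 fall were larger than 2-fold. Over all genes, the higher calls made up 52.1% of the total, against 42.3% under upper-quartile scaling and 65.7% with the Xist covariate. The median log2 fold change of the 44 was 0.34, beside -0.010 over all genes tested.

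After Slc45a4 mRNA knockdown, 5 of the 44 were higher (Itga4, Itga8, Itga9, Itgb8, Tnc) and 5 were lower (Itga3, Itgb1, Lamc1, Col4a1, Fn1) than with scramble. This is 22.7%, close to the 18% of all genes called in that comparison (8.92% higher and 9.09% lower). Of all calls 49.5% were higher, and 61.5% with the Xist covariate. The median log2 fold change of the 44 was 0.087, beside 0.013 over all genes tested. It was -0.043 without Slc45a4 mRNA knockdown replicate 3 and 0.27 with the Xist covariate. Both knockdowns were set against the same 3 scramble libraries, so their values are given side by side and no overlap between them is read.

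Set directly against each other, circSlc45a4 knockdown gave higher levels than Slc45a4 mRNA knockdown for 19 of the 44 genes and lower levels for none. This is 43.2%, against 26.1% of all genes called (13.8% higher and 12.3% lower). Higher calls were 52.8% of the total, against 42.1% under upper-quartile scaling. These 19 were Itga2, Itga5, Itga6, Itga9, Itgav, Itgb1, Itgb5, Lamb1, Lamb2, Lamc1, Col4a5, Hspg2, Tnc, Bcan, Ncan, Hmcn1, Ltbp2, Cemip and Sparc. At an unadjusted p under 0.05, 3 of the 44 were lower in the circSlc45a4 knockdown (Itgb4, Nid2, Spock2), and Spock2 was called lower by the DESeq2 Wald test (adjusted p = 0.0462).

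**Figure D1:**
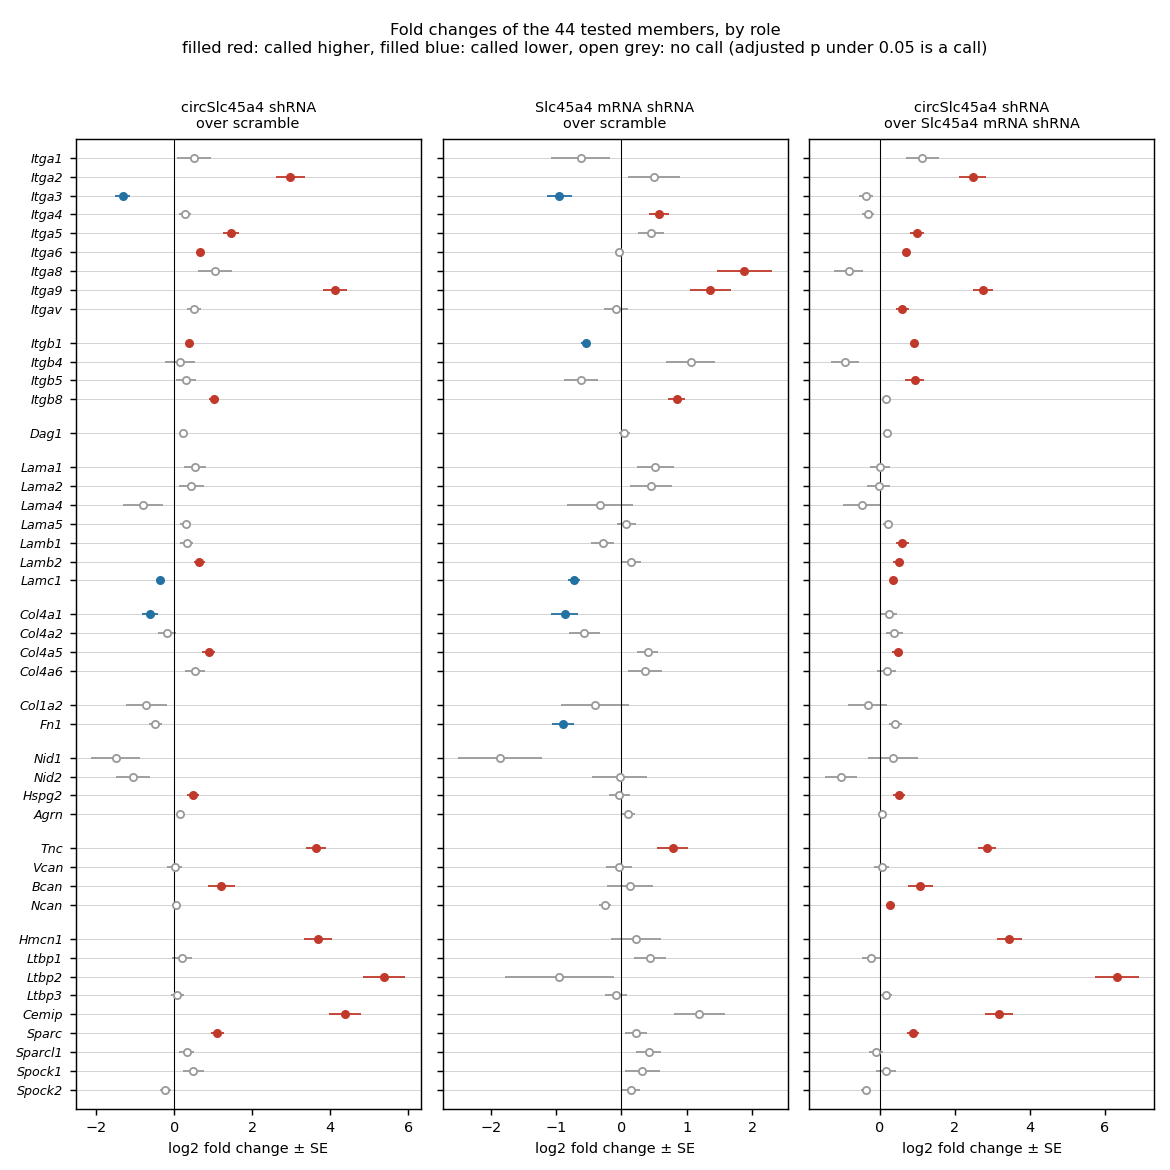
Log2 fold change ± SE of each of the 44 tested genes, in rows grouped by role, for circSlc45a4 knockdown over scramble (left), Slc45a4 mRNA knockdown over scramble (middle) and circSlc45a4 knockdown over Slc45a4 mRNA knockdown (right). Filled red points were called higher and filled blue points lower, 15 and 3 on the left, 5 and 5 in the middle, 19 and 0 on the right. The 3 panels have different x scales.

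The genes with the largest rises after circSlc45a4 knockdown were Ltbp2, Cemip, Itga9, Hmcn1, Tnc and Itga2, and promoter windows are shown for 5 of them so that the regions at the starts of the genes that rose most can be read. RefSeq (GRCm38.p6) gives a window of 250 bases before to 50 bases after a start for 39 of the 50 genes. The window of Itga9 lies inside the gene as GENCODE draws it and is not shown. RefSeq gives Tnc another, overlapping window (chr4:64046887-64047186), which is not shown either. Letters in capitals are matches to 7 motifs searched on both strands, whose letters are given after the sequences, and each window is printed 5′ to 3′ on the gene's strand.
Ltbp2, chr12:84876442-84876741, minus strand: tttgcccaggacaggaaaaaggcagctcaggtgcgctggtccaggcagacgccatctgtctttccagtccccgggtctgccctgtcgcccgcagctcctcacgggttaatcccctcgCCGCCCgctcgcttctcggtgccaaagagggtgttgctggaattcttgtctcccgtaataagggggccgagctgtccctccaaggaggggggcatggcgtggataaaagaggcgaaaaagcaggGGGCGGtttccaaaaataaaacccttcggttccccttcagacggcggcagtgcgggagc
Cemip, chr7:84086456-84086755, minus strand: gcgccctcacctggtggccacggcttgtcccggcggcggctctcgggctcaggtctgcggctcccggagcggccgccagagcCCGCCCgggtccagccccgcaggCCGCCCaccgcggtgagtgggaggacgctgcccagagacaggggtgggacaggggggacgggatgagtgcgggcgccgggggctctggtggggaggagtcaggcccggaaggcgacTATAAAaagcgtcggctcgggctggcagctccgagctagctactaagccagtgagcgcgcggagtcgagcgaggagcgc
Hmcn1, chr1:150993386-150993685, minus strand: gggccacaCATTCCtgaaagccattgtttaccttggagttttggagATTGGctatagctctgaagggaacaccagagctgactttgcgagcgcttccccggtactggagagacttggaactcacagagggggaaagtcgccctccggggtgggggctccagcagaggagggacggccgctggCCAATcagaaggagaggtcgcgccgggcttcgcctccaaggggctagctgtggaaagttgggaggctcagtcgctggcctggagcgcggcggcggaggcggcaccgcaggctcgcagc
Tnc, chr4:64046966-64047265, minus strand: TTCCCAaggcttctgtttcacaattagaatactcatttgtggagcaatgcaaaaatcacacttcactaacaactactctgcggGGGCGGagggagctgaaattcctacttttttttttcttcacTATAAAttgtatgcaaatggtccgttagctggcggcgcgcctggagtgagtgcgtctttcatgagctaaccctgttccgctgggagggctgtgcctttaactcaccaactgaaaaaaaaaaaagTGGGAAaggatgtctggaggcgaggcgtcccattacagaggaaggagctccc
Itga2, chr13:114932051-114932350, minus strand: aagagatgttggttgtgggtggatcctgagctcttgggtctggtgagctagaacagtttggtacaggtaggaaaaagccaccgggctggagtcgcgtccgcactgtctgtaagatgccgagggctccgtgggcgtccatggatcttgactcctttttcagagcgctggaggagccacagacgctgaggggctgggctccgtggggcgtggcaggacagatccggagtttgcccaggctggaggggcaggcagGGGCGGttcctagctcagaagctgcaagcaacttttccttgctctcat

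These 5 windows share no single motif among the 7 searched. Ltbp2, Cemip, Tnc and Itga2 have GC boxes (GGGCGG), which 35.7% of the 32851 windows in the RefSeq table also hold. Cemip has a TATA box (TATAAA) at position -29 from the start. Tnc has these letters farther upstream, at -126 in the window shown and at -205 in its other window. Of all windows 13.6% hold them somewhere. Hmcn1 has 2 CCAAT boxes (the letters CCAAT), a motif in 37.4% of all windows. Hmcn1 also has the letters GGAATG of the TEAD motif (14.7% of all windows) and Tnc those of the RBPJ motif, TGGGAA (25.6%). The AP-1 letters TGANTCA, in 7.81% of all windows, are in none of the 5, and neither are the E-box letters CACGTG, in 7.15%. Over the 39 genes with a window, 27 hold a GC box, 14 a CCAAT box, 11 the RBPJ letters, 6 the TEAD letters, 4 a TATA box, 4 the AP-1 letters and 0 the E-box. A match describes letters only, and no binding was measured.

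Among the alpha chains, which set the ligand that a pair binds, 9 of 10 were tested. After circSlc45a4 knockdown 4 rose and 1 fell, after Slc45a4 mRNA knockdown 3 rose and 1 fell, and in the direct comparison 5 were higher with circSlc45a4 knockdown and 0 were lower. The shares called were 55.6%, 44.4% and 55.6%, against 27.1%, 18% and 26.1% of all genes. Itga9, the alpha chain of a tenascin and osteopontin receptor, had the largest log2 fold change of the alpha chains after circSlc45a4 knockdown. It had 18.02, 15.6 and 10.7 CPM with circSlc45a4 knockdown, 2.01, 1.92 and 2.63 CPM with Slc45a4 mRNA knockdown and 0.622, 1.30 and 0.587 CPM with scramble. All 3 circSlc45a4 knockdown libraries were above all other libraries, and the Slc45a4 mRNA knockdown libraries were above scramble. The log2 fold change over scramble was 4.12 ± 0.30 (adjusted p = 1.27e-06) with circSlc45a4 knockdown and 1.36 ± 0.31 (adjusted p = 0.0089) with Slc45a4 mRNA knockdown, the last lost under limma-voom (adjusted p = 0.0723). The direct difference was 2.76 ± 0.27 (adjusted p = 1.68e-05).

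Itga2, a collagen-binding alpha chain, had 4.16, 3.83 and 3.15 CPM with circSlc45a4 knockdown, 0.865, 0.378 and 0.748 CPM with Slc45a4 mRNA knockdown and 0.574, 0.259 and 0.587 CPM with scramble. Its circSlc45a4 knockdown libraries stood apart from the rest, while the other groups overlapped. Its log2 fold change over scramble was 2.98 ± 0.38 (adjusted p = 9.21e-05) with circSlc45a4 knockdown and 0.50 ± 0.40 (adjusted p = 0.432) with Slc45a4 mRNA knockdown. Itga5, the alpha chain of the classical fibronectin receptor, had 10.4, 10.3 and 8.16 CPM with circSlc45a4 knockdown, 4.66, 5.10 and 4.68 CPM with Slc45a4 mRNA knockdown and 2.49, 4.57 and 3.40 CPM with scramble. The order of the groups was circSlc45a4 knockdown, Slc45a4 mRNA knockdown, scramble, with no overlap between them. On the log2 scale the fold change was 1.45 ± 0.20 (adjusted p = 0.0002) for circSlc45a4 knockdown over scramble, 0.45 ± 0.21 (adjusted p = 0.149) for Slc45a4 mRNA knockdown over scramble and 0.99 ± 0.20 (adjusted p = 0.00266) in the direct comparison.

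Itga6, a laminin-binding chain of radial glia, was the alpha chain with the highest level per kb of exon in every group, at 7.93, 4.91 and 5.02 CPM per kb with circSlc45a4 knockdown, Slc45a4 mRNA knockdown and scramble. It had 69.9, 72.8 and 72.1 CPM with circSlc45a4 knockdown, 43.7, 44.3 and 45.0 CPM with Slc45a4 mRNA knockdown and 44.7, 45.6 and 45.6 CPM with scramble. Its libraries within a group differed little, and only the circSlc45a4 knockdown stood above the rest. In the fit the log2 fold change was 0.66 ± 0.073 (adjusted p = 2.97e-05) for circSlc45a4 knockdown over scramble and -0.032 ± 0.073 (adjusted p = 0.804) for Slc45a4 mRNA knockdown over scramble.

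Itga3, another laminin-binding chain, went the other way. It had 4.05, 4.59 and 4.63 CPM with circSlc45a4 knockdown, 4.77, 6.12 and 6.20 CPM with Slc45a4 mRNA knockdown and 12.8, 12.2 and 8.18 CPM with scramble. Both knockdowns were below scramble in every library. The change on the log2 scale over scramble was -1.32 ± 0.19 (adjusted p = 0.000225) with circSlc45a4 knockdown and -0.95 ± 0.19 (adjusted p = 0.00359) with Slc45a4 mRNA knockdown, and both calls were lost with the Xist covariate (adjusted p = 0.0648 and 0.156).

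Itga4 and Itga8 were called after Slc45a4 mRNA knockdown. Itga8, which pairs with Itgb1 to bind RGD ligands, had 2.08, 1.39 and 1.48 CPM with circSlc45a4 knockdown, 4.27, 2.32 and 2.24 CPM with Slc45a4 mRNA knockdown and 0.383, 0.583 and 1.36 CPM with scramble. Both knockdowns were above scramble in every library, at low levels. Fitted over all libraries, the log2 fold change was 1.05 ± 0.43 (adjusted p = 0.086) with circSlc45a4 knockdown and 1.88 ± 0.42 (adjusted p = 0.0081) with Slc45a4 mRNA knockdown, a call lost with the Xist covariate (adjusted p = 0.218). Without scramble replicate 3, Itga8 was also called after circSlc45a4 knockdown (adjusted p = 0.0127). The same call was made with no filter on low counts (adjusted p = 0.0173) and by the DESeq2 Wald test (adjusted p = 0.0488). Itga4, a chain that binds VCAM1 and fibronectin, had 15.4, 15.4 and 11.3 CPM with circSlc45a4 knockdown, 19.4, 15.02 and 17.8 CPM with Slc45a4 mRNA knockdown and 11.1, 13.45 and 10.4 CPM with scramble. Its Slc45a4 mRNA knockdown libraries lay above scramble, and the circSlc45a4 knockdown libraries overlapped both groups. The log2 fold change was 0.58 ± 0.16 (adjusted p = 0.0215) with Slc45a4 mRNA knockdown. It lost its call with the Xist covariate and without Slc45a4 mRNA knockdown replicate 1 or 3 or scramble replicate 1 or 3, where the adjusted p lay between 0.0573 and 0.193. In annotated exons 8.04% of Itga4 bases lie opposite Cerkl and 5.05% of Itga8 bases opposite a non-coding gene, and reads of such partners cannot be told apart without strand.

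Itgav, which pairs with several beta chains on vitronectin, fibronectin and latent TGF-beta, lay nearest to the threshold in the circSlc45a4 comparison. It had 16.7, 21.6 and 20.3 CPM with circSlc45a4 knockdown, 14.5, 9.44 and 14.7 CPM with Slc45a4 mRNA knockdown and 10.9, 14.8 and 15.2 CPM with scramble. The circSlc45a4 knockdown libraries were above every other library. Its log2 fold change was 0.51 ± 0.18 (adjusted p = 0.0501) over scramble, with a call under 8 of 18 alternatives, and 0.60 ± 0.18 (adjusted p = 0.0252) over Slc45a4 mRNA knockdown. The direct call was lost without circSlc45a4 knockdown replicate 2 or 3 or Slc45a4 mRNA knockdown replicate 2, at an adjusted p of up to 0.0887. Itga1, a collagen-binding chain, was at 0.471 to 2.47 CPM across the 9 libraries and was not called in any comparison. In the direct comparison it was called higher under 6 of 18 alternatives. Among them were no filter on low counts (adjusted p = 0.0104), the DESeq2 Wald test (adjusted p = 0.0397) and limma-voom (adjusted p = 0.0366). The others were the 6 libraries compared alone (adjusted p = 0.0452) and the fits without Slc45a4 mRNA knockdown replicate 1 (adjusted p = 0.0351) or scramble replicate 3 (adjusted p = 0.0391). Itga7, a laminin-binding chain of muscle, did not exceed 0.292 CPM in any library and was not tested.

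**Figure D2:**
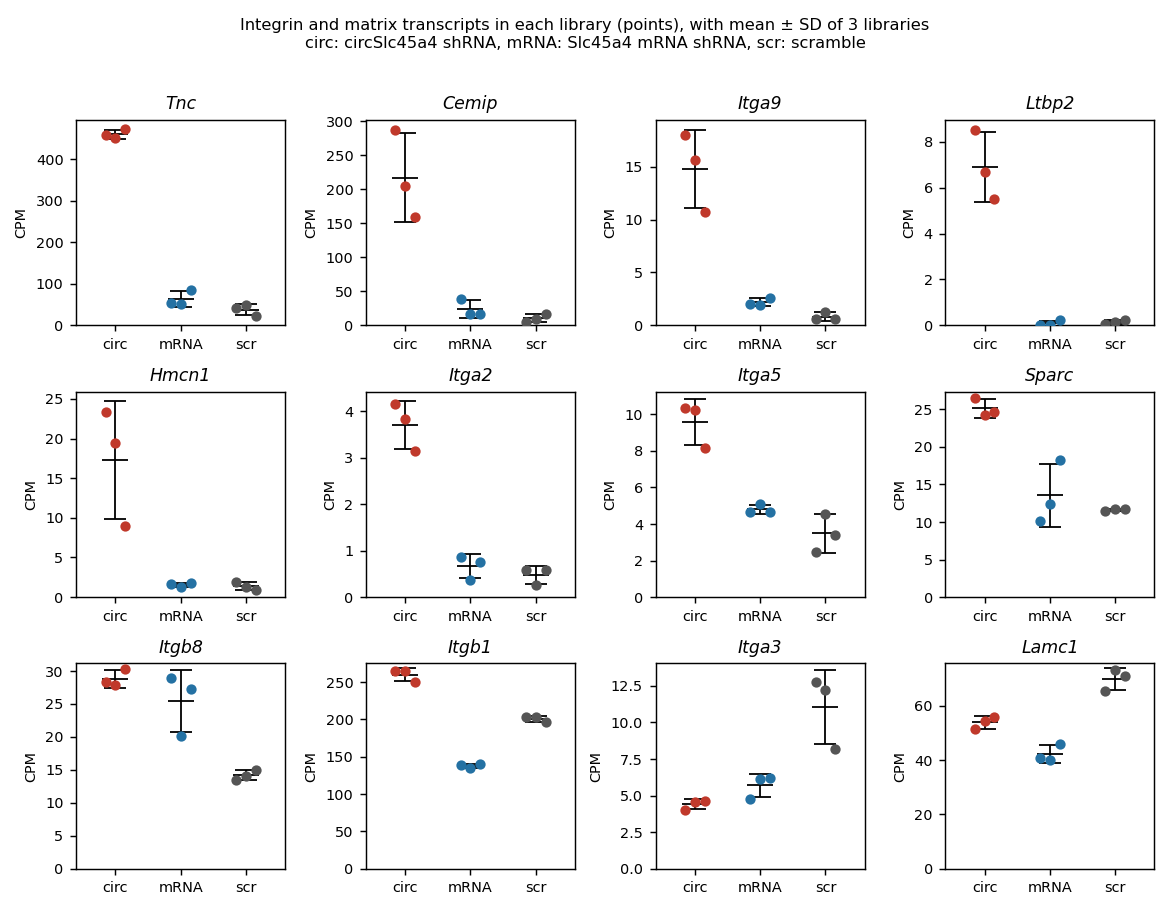
CPM (y axis, from 0) in each of the 3 libraries per group (points) with the group mean ± SD (bars) for 12 genes. The circSlc45a4 knockdown (circ, left) stands above the Slc45a4 mRNA knockdown (mRNA, middle) and scramble (scr, right) without overlap for the first 8 genes. Itgb8 is higher in both knockdowns, Itgb1 is higher in one and lower in the other, and Itga3 and Lamc1 are lower in both.

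Of the 5 beta chains 4 were tested, and 2 rose and 0 fell after circSlc45a4 knockdown, 1 rose and 1 fell after Slc45a4 mRNA knockdown, and 2 were higher and 0 lower in the direct comparison. Each is 50% of the 4, against 27.1%, 18% and 26.1% of all genes. Itgb1 pairs with most alpha chains and had the highest level of all receptors per kb of exon in every group. It had 265, 265 and 249.6 CPM with circSlc45a4 knockdown, 139, 135 and 139.7 CPM with Slc45a4 mRNA knockdown and 204, 203 and 197 CPM with scramble. The 3 groups did not overlap, with the circSlc45a4 knockdown above scramble and the Slc45a4 mRNA knockdown below it. On the log2 scale the fold change over scramble was 0.37 ± 0.067 (adjusted p = 0.00137) with circSlc45a4 knockdown and -0.55 ± 0.068 (adjusted p = 0.000146) with Slc45a4 mRNA knockdown, and the direct difference was 0.92 ± 0.068 (adjusted p = 2.67e-06). Itgb1 was the one tested gene of the list called in opposite directions in the 2 knockdowns. With the Xist covariate its rise after circSlc45a4 knockdown lost the call (adjusted p = 0.0781), while its fall after Slc45a4 mRNA knockdown kept it (adjusted p = 0.0169).

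Itgb8, which pairs with Itgav to activate latent TGF-beta, rose in both knockdowns. It had 28.3, 27.8 and 30.3 CPM with circSlc45a4 knockdown, 29.0, 20.2 and 27.3 CPM with Slc45a4 mRNA knockdown and 13.48, 14.1 and 14.97 CPM with scramble. Every knockdown library was above every scramble library. In the fit the log2 fold change was 1.02 ± 0.13 (adjusted p = 9.64e-05) with circSlc45a4 knockdown and 0.85 ± 0.13 (adjusted p = 0.000758) with Slc45a4 mRNA knockdown, and the direct difference was 0.18 ± 0.13 (adjusted p = 0.342). Itgb5, a partner of Itgav on vitronectin, had 3.78, 4.43 and 3.35 CPM with circSlc45a4 knockdown, 1.87, 2.35 and 1.83 CPM with Slc45a4 mRNA knockdown and 2.06, 3.08 and 4.11 CPM with scramble. Scramble overlapped both knockdowns, while the 2 knockdowns did not overlap each other. It was called only in the direct comparison, at 0.93 ± 0.26 (adjusted p = 0.0171), and not without circSlc45a4 knockdown replicate 2 (adjusted p = 0.062) or Slc45a4 mRNA knockdown replicate 3 (adjusted p = 0.0574). Without scramble replicate 1 it was also called lower than scramble after Slc45a4 mRNA knockdown (adjusted p = 0.0404). Itgb4, the partner of Itga6 in hemidesmosomes, ranged over 0.671 to 3.05 CPM and was not called. Without Slc45a4 mRNA knockdown replicate 1 it passed the threshold in that knockdown (adjusted p = 0.046). It also passed with no filter on low counts (adjusted p = 0.0325) and by the DESeq2 Wald test (adjusted p = 0.0411). Itgb3, the beta chain of platelets and osteoclasts, did not exceed 0.287 CPM and was not tested.

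Dag1 encodes dystroglycan, the main laminin receptor outside the integrins. It had 99.5, 93.2 and 95.4 CPM with circSlc45a4 knockdown, 77.0, 87.4 and 89.95 CPM with Slc45a4 mRNA knockdown and 87.9, 86.3 and 72.3 CPM with scramble. The circSlc45a4 knockdown libraries lay just above the others, and no comparison called it. The change on the log2 scale was 0.23 ± 0.091 (adjusted p = 0.0854) with circSlc45a4 knockdown and 0.046 ± 0.091 (adjusted p = 0.775) with Slc45a4 mRNA knockdown, and without Slc45a4 mRNA knockdown replicate 1 the first passed the threshold (adjusted p = 0.0435).

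The basement membrane genes follow. Of the 7 laminin chains, 1 rose and 1 fell after circSlc45a4 knockdown (28.6% called, against 27.1% of all genes), 0 rose and 1 fell after Slc45a4 mRNA knockdown (14.3%, against 18%), and 3 were higher and 0 lower in the direct comparison (42.9%, against 26.1%). Lamc1, the gamma chain of nearly all laminins, had 51.5, 54.4 and 55.8 CPM with circSlc45a4 knockdown, 40.7, 40.1 and 46.0 CPM with Slc45a4 mRNA knockdown and 65.5, 73.2 and 71.2 CPM with scramble. The groups did not overlap, with scramble highest and the Slc45a4 mRNA knockdown lowest. Fitted over all libraries, the log2 fold change over scramble was -0.38 ± 0.085 (adjusted p = 0.00531) with circSlc45a4 knockdown and -0.73 ± 0.086 (adjusted p = 0.000104) with Slc45a4 mRNA knockdown, and the direct difference was 0.35 ± 0.085 (adjusted p = 0.00887). The circSlc45a4 call was lost with the Xist covariate (adjusted p = 0.482).

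Lamb2, a beta chain found in brain basement membranes, had 29.7, 24.6 and 25.3 CPM with circSlc45a4 knockdown, 16.6, 16.3 and 23.1 CPM with Slc45a4 mRNA knockdown and 14.3, 18.8 and 17.6 CPM with scramble. The circSlc45a4 knockdown was above all other libraries, at a log2 fold change of 0.65 ± 0.15 (adjusted p = 0.0068) over scramble and 0.51 ± 0.15 (adjusted p = 0.0247) over Slc45a4 mRNA knockdown. The direct call was lost without circSlc45a4 knockdown replicate 1 or Slc45a4 mRNA knockdown replicate 1 or 2, at an adjusted p of up to 0.107. Lamb1, the other beta chain, had 45.6, 43.8 and 48.2 CPM with circSlc45a4 knockdown, 23.7, 33.9 and 32.8 CPM with Slc45a4 mRNA knockdown and 46.8, 36.3 and 27.9 CPM with scramble. Its scramble libraries spread across both knockdowns, and it was called in the direct comparison alone (0.61 ± 0.17, adjusted p = 0.0176), though not without circSlc45a4 knockdown replicate 3 (adjusted p = 0.0513) or Slc45a4 mRNA knockdown replicate 1 (adjusted p = 0.0527). Without scramble replicate 1 (adjusted p = 0.0349) or with no filter on low counts (adjusted p = 0.0326), Lamb1 was also called higher over scramble after circSlc45a4 knockdown. The alpha chains Lama1, Lama2, Lama4 and Lama5 were not called in any comparison, with log2 fold changes over scramble between -0.80 and 0.53 after circSlc45a4 knockdown and between -0.33 and 0.52 after Slc45a4 mRNA knockdown. With no filter on low counts Lama1 was called higher after circSlc45a4 knockdown (adjusted p = 0.0359).

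The type IV collagens form the network of the basement membrane, and their genes lie in head-to-head pairs. Col4a1 and Col4a2 start 21 bases apart on opposite strands of chromosome 8, and Col4a5 and Col4a6 start 1309 bases apart on the X chromosome. Col4a1 had 5.03, 6.37 and 5.39 CPM with circSlc45a4 knockdown, 3.91, 4.53 and 5.76 CPM with Slc45a4 mRNA knockdown and 10.8, 6.51 and 8.77 CPM with scramble. Both knockdowns were below scramble, by little in scramble replicate 2. The log2 fold change was -0.63 ± 0.21 (adjusted p = 0.0364) with circSlc45a4 knockdown and -0.87 ± 0.21 (adjusted p = 0.0114) with Slc45a4 mRNA knockdown. The first was lost with the Xist covariate, with the replicate block, and without circSlc45a4 knockdown replicate 1 or 3 or scramble replicate 1 or 3 (adjusted p of 0.0655 to 0.749). The second was lost with the Xist covariate (adjusted p = 0.349) and without scramble replicate 1 (adjusted p = 0.0508). Col4a2 was not called, at -0.18 ± 0.23 with circSlc45a4 knockdown and -0.57 ± 0.23 with Slc45a4 mRNA knockdown.

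Col4a5 rose where its partner was not called. It had 14.7, 15.6 and 16.8 CPM with circSlc45a4 knockdown, 11.3, 9.63 and 12.9 CPM with Slc45a4 mRNA knockdown and 6.74, 8.72 and 9.97 CPM with scramble. The circSlc45a4 knockdown was above all other libraries. Its log2 fold change was 0.88 ± 0.16 (adjusted p = 0.00119) over scramble and 0.48 ± 0.15 (adjusted p = 0.0369) over Slc45a4 mRNA knockdown. The direct call was lost with upper-quartile factors and in 6 of 9 fits that left out a library (each circSlc45a4 knockdown replicate, Slc45a4 mRNA knockdown replicates 1 and 2, and scramble replicate 2), at an adjusted p of up to 0.129. Col4a6 had log2 fold changes of 0.54 and 0.36 over scramble. The difference between the genes of a pair was not tested.

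Nidogens join the laminin and collagen networks, and perlecan (Hspg2) and agrin (Agrn) carry heparan sulfate. Hspg2 had 27.2, 29.7 and 27.2 CPM with circSlc45a4 knockdown, 14.5, 18.6 and 25.7 CPM with Slc45a4 mRNA knockdown and 19.8, 19.4 and 21.02 CPM with scramble. The circSlc45a4 knockdown libraries were the highest, and one Slc45a4 mRNA knockdown library came close. On the log2 scale the fold change was 0.48 ± 0.16 (adjusted p = 0.0409) over scramble and 0.52 ± 0.16 (adjusted p = 0.0308) over Slc45a4 mRNA knockdown. Both lie near the threshold. The first was lost with upper-quartile factors and in 7 of 9 fits that left out a library, all but Slc45a4 mRNA knockdown replicates 1 and 3, at an adjusted p of up to 0.132. The second was lost with the 6 libraries compared alone and without any circSlc45a4 knockdown replicate or Slc45a4 mRNA knockdown replicate 1 or 2, at up to 0.0997. Agrn, behind Ncan and Itgb1 in level per kb in the scramble group at 48.0 CPM per kb, was not called in any comparison, with log2 fold changes of 0.15 and 0.10 over scramble.

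Nid1 had 0.157, 0.246 and 0.648 CPM with circSlc45a4 knockdown, 0.167, 0.270 and 0.388 CPM with Slc45a4 mRNA knockdown and 1.39, 0.389 and 1.27 CPM with scramble. Its levels were low and 2 scramble libraries stood above the rest. In the fit the log2 fold change was -1.50 ± 0.62 (adjusted p = 0.091) with circSlc45a4 knockdown and -1.86 ± 0.64 (adjusted p = 0.062) with Slc45a4 mRNA knockdown. The first passed the threshold without circSlc45a4 knockdown replicate 3 (adjusted p = 0.0314) and with no filter on low counts (adjusted p = 0.0423). The second passed it without circSlc45a4 knockdown replicate 3 (adjusted p = 0.0487) and without scramble replicate 2 (adjusted p = 0.0437). It also passed with no filter (adjusted p = 0.0135) and with the 6 libraries compared alone (adjusted p = 0.0468). Nid2 had a log2 fold change of -1.05 ± 0.44 (adjusted p = 0.0924) with circSlc45a4 knockdown, and passed without scramble replicate 1 (adjusted p = 0.0299). In the direct comparison it passed without Slc45a4 mRNA knockdown replicate 2 (adjusted p = 0.0379). With no filter Nid2 passed in both of these comparisons (adjusted p = 0.0368 and 0.0449).

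Markers of vessel cells and meninges are given beside the basement membrane genes. The summed level of 9 endothelial markers was 1.25 to 2.35 CPM with circSlc45a4 knockdown, 1.86 to 2.43 CPM with Slc45a4 mRNA knockdown and 2.53 to 5.13 CPM with scramble. Of these markers 4 were tested, and 1 fell after circSlc45a4 knockdown (Esam) and 0 after Slc45a4 mRNA knockdown. This is 25% and 0% called, against 27.1% and 18% of all genes. The median log2 fold changes of the 4 were -0.905 and -0.989, or -0.001 and 0.458 with the 1 CPM filter. Leaving out 1 library gave 0 to 2 lower after circSlc45a4 knockdown and 0 to 3 lower after Slc45a4 mRNA knockdown. The Esam call was lost with the Xist covariate, with the 1 CPM filter, and without circSlc45a4 knockdown replicate 2 or 3 or scramble replicate 1 or 2. Ly6c1 was at 0 in all libraries. The 8 pericyte markers summed to 30.3 to 35.3 CPM, 21.4 to 26.3 CPM and 21.04 to 30.0 CPM in the same order of groups, most of it Notch3, which apical progenitors also express. Of these 4 were tested, and 1 (Pdgfrb) rose after circSlc45a4 knockdown (1.39, adjusted p = 0.00167, edgeR). After Slc45a4 mRNA knockdown 0 were called, and 2 (Pdgfrb, Notch3) were higher in the direct comparison. This is 25%, 0% and 50%, against 27.1%, 18% and 26.1% of all genes. Both Pdgfrb calls held in all 18 alternatives, and the Notch3 call in 12. The 8 meningeal fibroblast markers summed to 1.19 to 2.169 CPM, 1.21 to 1.84 CPM and 0.778 to 1.51 CPM, and Foxd1 and Slc22a6 were at 0 in all 9 libraries. Their part in the changes of Col4a1, Nid1 or Nid2 was not tested.

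Collagens of connective tissue were at low levels in these sorted cells, and Col1a1 was highest in scramble replicates 1 and 2. Col1a1, the main collagen of bone and skin, had 0.0671, 0.219 and 0.157 CPM with circSlc45a4 knockdown, 0.251, 0.0539 and 0.222 CPM with Slc45a4 mRNA knockdown and 0.861, 0.972 and 0.216 CPM with scramble, and it was not tested. Col3a1 did not exceed 0.216 CPM and was not tested, and Col1a2, at 0.157 to 0.765 CPM, was not called. Fibronectin (Fn1), the main ligand of the Itga5 and Itgav receptors, was by contrast abundant, at 18.5 CPM per kb of exon in the scramble group. It had 143, 134 and 187 CPM with circSlc45a4 knockdown, 90.7, 127 and 131 CPM with Slc45a4 mRNA knockdown and 244, 242 and 163 CPM with scramble. Scramble replicates 1 and 2 were the highest libraries, and scramble replicate 3 lay within the circSlc45a4 knockdown range. The change on the log2 scale was -0.48 ± 0.17 (adjusted p = 0.0529) with circSlc45a4 knockdown and -0.90 ± 0.17 (adjusted p = 0.0033) with Slc45a4 mRNA knockdown. The first was called under 8 of 18 alternatives, among them the fits without circSlc45a4 knockdown replicate 3 (adjusted p = 0.0232), Slc45a4 mRNA knockdown replicate 1 (adjusted p = 0.0236) and scramble replicate 3 (adjusted p = 0.0114). The second was lost with the Xist covariate (adjusted p = 0.165).

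Tenascin C (Tnc), a large glycoprotein of progenitor zones that binds Itga9 and lecticans, showed the largest shift in level. It had 457, 449.9 and 472 CPM with circSlc45a4 knockdown, 53.6, 52.4 and 85.4 CPM with Slc45a4 mRNA knockdown and 41.1, 48.1 and 22.3 CPM with scramble. No circSlc45a4 knockdown library came near the others, and the Slc45a4 mRNA knockdown libraries lay just above scramble. Per kb of exon it averaged 59.1 CPM with circSlc45a4 knockdown, 8.21 CPM with Slc45a4 mRNA knockdown and 4.78 CPM with scramble, which placed it behind Ncan and Itgb1 in the first group. Fitted over all libraries, the log2 fold change was 3.63 ± 0.25 (adjusted p = 8.53e-07) with circSlc45a4 knockdown and 0.78 ± 0.23 (adjusted p = 0.0328) with Slc45a4 mRNA knockdown, and the direct difference was 2.85 ± 0.24 (adjusted p = 5.79e-06). The Slc45a4 mRNA call was lost in 7 of 18 alternatives: DESeq2, the replicate block, the 6 libraries alone, and without circSlc45a4 knockdown replicate 2, Slc45a4 mRNA knockdown replicate 3 or scramble replicate 1 or 3 (adjusted p of 0.0504 to 0.137).

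The lecticans are proteoglycans that bind hyaluronan and tenascins. Ncan (neurocan) had the highest level per kb of the whole list in each group, at 66.9, 55.0 and 65.4 CPM per kb with circSlc45a4 knockdown, Slc45a4 mRNA knockdown and scramble. It was called only in the direct comparison (0.28 ± 0.089, adjusted p = 0.032), where the call was lost in 8 of 18 alternatives, 5 of them fits without a library (each circSlc45a4 knockdown replicate, Slc45a4 mRNA knockdown replicate 1 or scramble replicate 2), at an adjusted p of up to 0.0931. Without Slc45a4 mRNA knockdown replicate 2 it was also called lower than scramble after Slc45a4 mRNA knockdown (adjusted p = 0.0496), as it was by the DESeq2 Wald test (adjusted p = 0.037). Vcan (versican) had 141, 129 and 98.9 CPM with circSlc45a4 knockdown, 167, 91.7 and 97.7 CPM with Slc45a4 mRNA knockdown and 102, 129 and 135 CPM with scramble. The 3 groups overlapped, and the log2 fold changes over scramble were 0.011 ± 0.20 and -0.039 ± 0.20, with no call.

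Bcan (brevican), a lectican of glia, had 5.34, 6.81 and 6.50 CPM with circSlc45a4 knockdown, 1.76, 3.16 and 3.91 CPM with Slc45a4 mRNA knockdown and 4.26, 2.50 and 1.48 CPM with scramble. All circSlc45a4 knockdown libraries were above all others. The log2 fold change was 1.21 ± 0.34 (adjusted p = 0.0185) over scramble and 1.08 ± 0.33 (adjusted p = 0.0292) over Slc45a4 mRNA knockdown. The first was lost with the Xist covariate and without circSlc45a4 knockdown replicate 2 or scramble replicate 2 or 3, at an adjusted p of up to 0.0779. The second was lost with the replicate block and without circSlc45a4 knockdown replicate 2 or 3 or Slc45a4 mRNA knockdown replicate 1 or 2, at up to 0.0883. Acan (aggrecan) and the link protein gene Hapln1, parts of the nets around mature neurons, did not exceed 0.246 and 0.0894 CPM and were not tested.

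**Figure D3:**
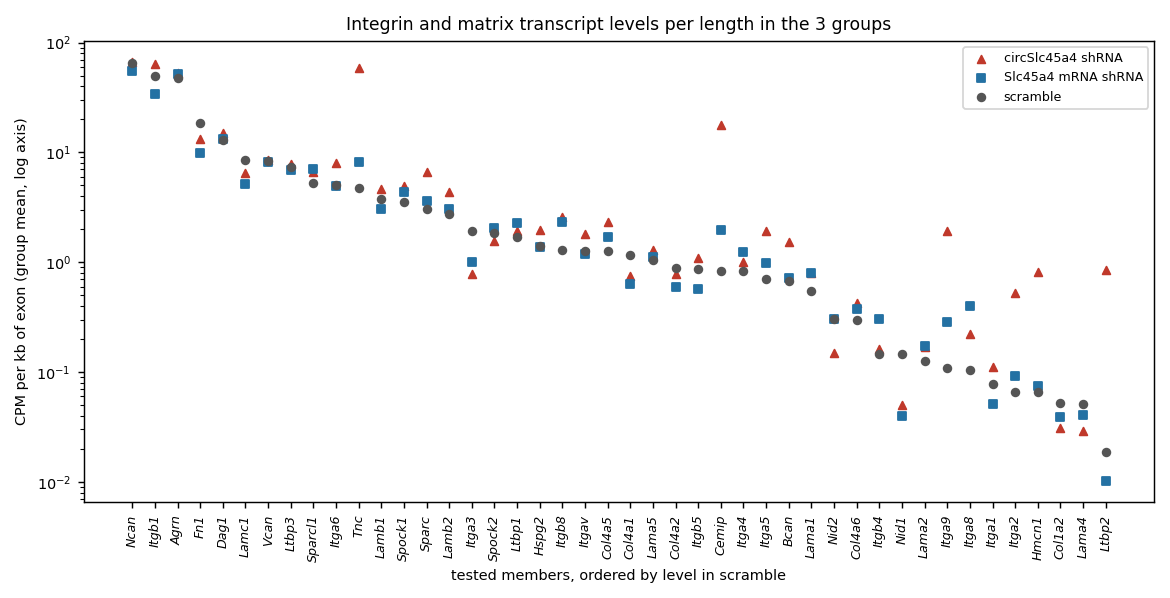
Mean CPM per kb of annotated exon (log axis) of the 44 tested genes in circSlc45a4 knockdown (triangles), Slc45a4 mRNA knockdown (squares) and scramble (circles), ordered by the scramble level. Tnc stands at 59.1 with circSlc45a4 knockdown against 4.78 with scramble, Cemip at 17.7 against 0.838, and for each of Ncan, Agrn and Vcan the 3 groups lie close together.

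Of the 9 other matrix proteins, 4 rose and 0 fell after circSlc45a4 knockdown, and 0 were called after Slc45a4 mRNA knockdown by edgeR (2 with an unadjusted p under 0.05). The shares called were 44.4% and 0%, against 27.1% and 18% of all genes. Ltbp2, of the latent TGF-beta binding protein family but tied to elastic fibres rather than to TGF-beta, had 8.52, 6.70 and 5.50 CPM with circSlc45a4 knockdown, 0.0279, 0 and 0.222 CPM with Slc45a4 mRNA knockdown and 0.0478, 0.162 and 0.247 CPM with scramble. It was present in the circSlc45a4 knockdown libraries and near the floor in the other 6. Its log2 fold change was 5.37 ± 0.54 (adjusted p = 1.52e-05) over scramble and 6.33 ± 0.58 (adjusted p = 1.04e-05) over Slc45a4 mRNA knockdown. In the annotation 9.34% of its exon bases lie opposite the non-coding gene D030025P21Rik, and their reads cannot be told apart without strand. After Slc45a4 mRNA knockdown it was called lower without replicate 3 of that group alone (adjusted p = 0.0463).

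Cemip, a hyaluronan-binding protein required for the breakdown of hyaluronan, had 287, 205 and 159 CPM with circSlc45a4 knockdown, 38.7, 16.8 and 16.4 CPM with Slc45a4 mRNA knockdown and 4.73, 9.72 and 16.3 CPM with scramble. The circSlc45a4 knockdown libraries were far above the rest, and the Slc45a4 mRNA knockdown libraries were just above scramble. Per kb of exon it averaged 17.7 CPM with circSlc45a4 knockdown, 1.96 CPM with Slc45a4 mRNA knockdown and 0.838 CPM with scramble. On the log2 scale the fold change was 4.37 ± 0.41 (adjusted p = 9.1e-06) with circSlc45a4 knockdown and 1.19 ± 0.39 (adjusted p = 0.0501) with Slc45a4 mRNA knockdown. The second sat at the threshold and was called under 6 of 18 alternatives, among them the fits without Slc45a4 mRNA knockdown replicate 2 (adjusted p = 0.0421), Slc45a4 mRNA knockdown replicate 3 (adjusted p = 0.0411) or scramble replicate 3 (adjusted p = 0.0163).

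Hmcn1 (hemicentin 1), a giant protein of cell junctions and basement membranes, had 23.4, 19.5 and 9.01 CPM with circSlc45a4 knockdown, 1.62, 1.30 and 1.80 CPM with Slc45a4 mRNA knockdown and 1.96, 1.33 and 0.865 CPM with scramble. Its circSlc45a4 knockdown replicate 3 was lower than the other 2 but still above every library of the other groups. In the fit the log2 fold change was 3.68 ± 0.36 (adjusted p = 1.04e-05) over scramble and 0.22 ± 0.38 (adjusted p = 0.732) for Slc45a4 mRNA knockdown over scramble. Sparc (osteonectin), a collagen-binding protein that modulates cell adhesion, had 26.5, 24.2 and 24.7 CPM with circSlc45a4 knockdown, 10.1, 12.4 and 18.3 CPM with Slc45a4 mRNA knockdown and 11.5, 11.7 and 11.8 CPM with scramble. The scramble libraries were nearly equal, and all circSlc45a4 knockdown libraries were above the rest. The change on the log2 scale was 1.11 ± 0.17 (adjusted p = 0.000425) over scramble and 0.89 ± 0.17 (adjusted p = 0.00205) over Slc45a4 mRNA knockdown.

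The relatives of Sparc and of Ltbp2 were not called in the comparisons with scramble. Ltbp1 and Ltbp3, which hold latent TGF-beta in the matrix, had log2 fold changes of 0.20 ± 0.25 and 0.077 ± 0.17 after circSlc45a4 knockdown. Sparcl1 (hevin) and the testicans Spock1 and Spock2 had 0.32 ± 0.19, 0.49 ± 0.27 and -0.23 ± 0.14. Without scramble replicate 1, Ltbp1 (adjusted p = 0.0477) and Sparcl1 (adjusted p = 0.0384) were called higher after Slc45a4 mRNA knockdown. With no filter on low counts Ltbp1, Sparcl1 and Spock1 were called higher there (adjusted p = 0.0117, 0.0253 and 0.048). Spock1 was then also called higher after circSlc45a4 knockdown (adjusted p = 0.000302). Spock2 lay nearest to the threshold in the direct comparison, with 8.54, 8.69 and 8.83 CPM with circSlc45a4 knockdown, 9.46, 12.5 and 11.9 CPM with Slc45a4 mRNA knockdown and 10.7, 10.2 and 9.66 CPM with scramble. Its circSlc45a4 knockdown libraries were all just below the other 6. The direct difference was -0.38 ± 0.13 (adjusted p = 0.0528). It was called under 4 of 18 alternatives, among them the fit without Slc45a4 mRNA knockdown replicate 1 (adjusted p = 0.0153).

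Receptors and matrix genes were then set side by side. After circSlc45a4 knockdown, 6 of 14 tested receptors rose and 1 fell (median log2 fold change 0.51), and 9 of 30 matrix genes rose and 2 fell (median 0.31). After Slc45a4 mRNA knockdown, 4 receptors rose and 2 fell (median 0.25), and 1 matrix gene rose and 3 fell (median 0.087). In the direct comparison 7 receptors were higher and 0 lower (median 0.65), and 12 matrix genes were higher and 0 lower (median 0.26). In these 3 comparisons 50%, 42.9% and 50% of receptors and 36.7%, 13.3% and 40% of matrix genes were called. Over all genes tested the shares were 27.1%, 18% and 26.1%. Without scramble replicate 1 the medians after circSlc45a4 knockdown were 0.38 for receptors and 0.42 for matrix genes, and without scramble replicate 3 they were 0.63 and 0.13. Without scramble replicate 2 the receptor median after Slc45a4 mRNA knockdown was 0.14. The matrix median of that comparison lay between -0.044 (without Slc45a4 mRNA knockdown replicate 3) and 0.15 (without its replicate 1) when a library was left out, and it was -0.033 with no filter and 0.27 with the Xist covariate. With no filter the receptor median of the direct comparison was 0.39. The difference between the 2 sides was not tested.

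By library, the median receptor stood 0.49, 0.68 and 0.63 above its mean scramble level on the log2 scale in circSlc45a4 knockdown replicates 1, 2 and 3, and 0.30, 0.030 and 0.30 above it with Slc45a4 mRNA knockdown. The median matrix gene stood 0.27, 0.27 and 0.36 above its mean scramble level with circSlc45a4 knockdown, and at -0.16, -0.063 and 0.28 with Slc45a4 mRNA knockdown. The circSlc45a4 knockdown libraries were thus above scramble on both sides, while the Slc45a4 mRNA knockdown libraries spread around it for the matrix genes.

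Summed over genes, the 16 receptors came to 531 ± 14.8 CPM with circSlc45a4 knockdown, 344 ± 10.9 CPM with Slc45a4 mRNA knockdown and 390.5 ± 12.8 CPM with scramble (SD, n = 3 each). The 34 matrix genes summed to 2358 ± 113 CPM, 1530 ± 149.5 CPM and 1651 ± 109 CPM in the same order of groups. Itgb1 made up the largest part of the receptor sum. Tenascin, lecticans and link protein summed to 1071 ± 21.2 CPM, 581 ± 19.8 CPM and 632 ± 32.1 CPM, and Tnc alone accounts for most of that difference, at a mean of 459.6 CPM with circSlc45a4 knockdown and 37.2 CPM with scramble.

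Other genes of matrix adhesion were followed in 7 lists. Of their 49 calls after circSlc45a4 knockdown 19 held with the Xist covariate, of 22 calls after Slc45a4 mRNA knockdown 8 held, and of 43 calls in the direct comparison 40 held. Of 10 tested integrin ligands that are not on the main list, 7 rose and 1 fell after circSlc45a4 knockdown, at a median log2 fold change of 1.06, or 1.63 with the Xist covariate. After Slc45a4 mRNA knockdown 1 rose and 0 fell, and in the direct comparison 8 were higher and 1 lower. Vcam1, the ligand of the Itga4 receptor, had 37.3, 43.9 and 36.0 CPM with circSlc45a4 knockdown, 13.4, 10.7 and 13.54 CPM with Slc45a4 mRNA knockdown and 10.8, 11.7 and 10.3 CPM with scramble. All circSlc45a4 knockdown libraries were above the other 6, at a log2 fold change of 1.84 ± 0.13 (adjusted p = 8.53e-07) over scramble.

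Spp1 (osteopontin), a ligand of the Itga9 and Itgav receptors, had 2.88, 3.47 and 3.40 CPM with circSlc45a4 knockdown, 1.45, 1.86 and 0.886 CPM with Slc45a4 mRNA knockdown and 0.383, 0.519 and 0.185 CPM with scramble. Its order was circSlc45a4 knockdown, Slc45a4 mRNA knockdown, scramble without overlap, at 3.17 ± 0.39 (adjusted p = 7.29e-05) and 1.95 ± 0.40 (adjusted p = 0.00465) for the knockdowns over scramble, the second lost with the Xist covariate (adjusted p = 0.225). Ccn2, a matricellular protein that binds several integrins, rose after circSlc45a4 knockdown (1.94 ± 0.30, adjusted p = 0.000411). Edil3, a ligand of Itgav receptors, was the one that fell (-0.88 ± 0.15, adjusted p = 0.000728). Microglia also express Spp1. Their 8 markers summed to 6.22 to 11.6 CPM with circSlc45a4 knockdown, 2.96 to 7.90 CPM with Slc45a4 mRNA knockdown and 2.59 to 4.73 CPM with scramble. Of these markers 6 were tested and 1 rose after circSlc45a4 knockdown (C1qa), or 16.7%, against 27.1% of all genes. All 6 had a positive log2 fold change, at a median of 1.25, and 4 had an unadjusted p under 0.05. Leaving out 1 library gave 0 to 3 higher. After Slc45a4 mRNA knockdown 0 were called, at a median of 0.68. The C1qa call was lost with the Xist covariate, with the 1 CPM filter, and without circSlc45a4 knockdown replicate 2 or scramble replicate 3. The part of microglia in the Spp1 change was not tested.

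Inside the cell, 21 genes of integrin adaptors and kinases were tested. After circSlc45a4 knockdown 7 rose and 4 fell, after Slc45a4 mRNA knockdown 0 rose and 4 fell, and in the direct comparison 9 were higher and 0 lower. This is 52.4%, 19% and 42.9% called, against 27.1%, 18% and 26.1% of all genes. The share after Slc45a4 mRNA knockdown is thus close to that of all genes. Leaving out 1 library gave 4 to 8 higher and 2 to 4 lower after circSlc45a4 knockdown, and 1 to 4 lower after Slc45a4 mRNA knockdown. Fermt3, a kindlin of blood cells, rose after circSlc45a4 knockdown (1.66 ± 0.34, adjusted p = 0.00301), as did the kinase Src (0.51 ± 0.11, adjusted p = 0.00435), and the Fermt3 call was lost with the Xist covariate (adjusted p = 0.0943). Parvb, a parvin that links integrin-linked kinase to actin, had 2.10, 2.62 and 2.35 CPM with circSlc45a4 knockdown, 3.07, 2.24 and 1.61 CPM with Slc45a4 mRNA knockdown and 4.88, 6.45 and 7.16 CPM with scramble. Every knockdown library was below every scramble library, at -1.39 ± 0.25 (adjusted p = 0.00111) with circSlc45a4 knockdown and -1.42 ± 0.25 (adjusted p = 0.0017) with Slc45a4 mRNA knockdown. The scaffold Bcar1 fell after Slc45a4 mRNA knockdown (-0.43 ± 0.10, adjusted p = 0.0118), as did Rsu1 (-0.49 ± 0.13, adjusted p = 0.0176), and both calls were lost with the Xist covariate and without scramble replicate 2. The direct comparison called Lims1 (PINCH1, 0.55 ± 0.092, adjusted p = 0.000815), Fermt2 (kindlin 2, 0.45 ± 0.085, adjusted p = 0.00214) and Vcl (vinculin, 0.62 ± 0.12, adjusted p = 0.00235).

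Dystroglycan binds laminin only once glycosyltransferases have built its sugar chain. Of 15 genes of that synthesis and of the dystroglycan complex, 5 rose and 3 fell after circSlc45a4 knockdown, and 2 rose and 5 fell after Slc45a4 mRNA knockdown, while the direct comparison had 5 higher and 1 lower. This is 53.3%, 46.7% and 40% called, against 27.1%, 18% and 26.1% of all genes. Leaving out 1 library gave 2 to 5 higher and 1 to 3 lower after circSlc45a4 knockdown, and 1 to 2 higher and 2 to 5 lower after Slc45a4 mRNA knockdown. Sgce (epsilon-sarcoglycan) rose after circSlc45a4 knockdown (0.62 ± 0.10, adjusted p = 0.000635), and Sgcb (beta-sarcoglycan) fell after Slc45a4 mRNA knockdown (-0.47 ± 0.11, adjusted p = 0.00845). With the Xist covariate both were lost (adjusted p = 0.118 and 0.15).

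Of 16 other matrix receptors and heparan sulfate carriers of the cell surface, 9 rose and 2 fell after circSlc45a4 knockdown (median 0.50), 4 rose and 1 fell after Slc45a4 mRNA knockdown, and 5 were higher and 2 lower in the direct comparison. The shares called were 68.8%, 31.2% and 43.8%, against 27.1%, 18% and 26.1% of all genes. Leaving out 1 library gave 5 to 9 higher and 0 to 1 lower after circSlc45a4 knockdown, and 3 to 6 higher in the direct comparison. The glypicans Gpc3, Gpc4 and Gpc6, heparan sulfate proteins held by a lipid anchor, had log2 fold changes of 1.72 ± 0.19, 0.74 ± 0.087 and 1.02 ± 0.18 after circSlc45a4 knockdown (adjusted p = 3.12e-05, 5.06e-05 and 0.00118). Gpc1 rose after circSlc45a4 knockdown (0.35 ± 0.10, adjusted p = 0.0167) and fell after Slc45a4 mRNA knockdown (-0.41 ± 0.10, adjusted p = 0.00984). Both Gpc1 calls were lost with the Xist covariate, the first also without circSlc45a4 knockdown replicate 1 or 2 or scramble replicate 1 and the second without scramble replicate 2. The collagen receptor Ddr2 rose in both knockdowns, at 0.94 ± 0.17 (adjusted p = 0.00129) and 1.09 ± 0.17 (adjusted p = 0.000763), the first lost with the Xist covariate (adjusted p = 0.0651).

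Of 18 tested matrix proteases and their inhibitors, 7 rose and 1 fell after circSlc45a4 knockdown (median 0.73, or 0.46 with the Xist covariate), 3 rose and 1 fell after Slc45a4 mRNA knockdown, and 7 were higher and 2 lower in the direct comparison. The shares called were 44.4%, 22.2% and 50%, against 27.1%, 18% and 26.1% of all genes. Timp2, an inhibitor of matrix metalloproteases, had 93.3, 71.7 and 69.3 CPM with circSlc45a4 knockdown, 46.0, 50.4 and 49.4 CPM with Slc45a4 mRNA knockdown and 24.4, 19.7 and 18.6 CPM with scramble. The groups stood in the order circSlc45a4 knockdown, Slc45a4 mRNA knockdown, scramble without overlap, at 1.91 ± 0.13 (adjusted p = 8.53e-07) and 1.22 ± 0.13 (adjusted p = 4.36e-05) for the knockdowns over scramble. The secreted serine protease Htra1 rose after circSlc45a4 knockdown (2.16 ± 0.26, adjusted p = 5.28e-05), and so did the membrane protease Mmp16 (0.78 ± 0.10, adjusted p = 0.000134). Mmp14 rose and Mmp15 fell after Slc45a4 mRNA knockdown (0.53 ± 0.084, adjusted p = 0.000833; -0.78 ± 0.14, adjusted p = 0.0017), and Mmp15 also fell after circSlc45a4 knockdown (-0.85 ± 0.14, adjusted p = 0.000528). Both Mmp15 calls were lost with the Xist covariate (adjusted p = 0.141 and 0.154).

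The other 2 lists are collagen processing and hyaluronan. Of 11 tested genes of collagen processing, 2 rose (Serpinh1 at 0.50 ± 0.11, adjusted p = 0.00415, Plod2 at 0.81 ± 0.21, adjusted p = 0.0118) and 1 fell (Colgalt1 at -0.47 ± 0.10, adjusted p = 0.00494) after circSlc45a4 knockdown, which is 27.3%, beside 27.1% of all genes. With Slc45a4 mRNA knockdown 0 rose and 1 fell (P4hb at -0.34 ± 0.077, adjusted p = 0.00876), which is 9.09%, beside 18% of all genes. All 4 calls were lost with the Xist covariate, that of Plod2 also without circSlc45a4 knockdown replicate 2 and that of P4hb without scramble replicate 2. None of 6 tested genes of hyaluronan synthesis and turnover was called in either knockdown by edgeR, against 27.1% and 18% of all genes. Of the 6, 1 and 3 had an unadjusted p under 0.05, and leaving out 1 library gave 0 to 1 higher in each knockdown. In the direct comparison Hmmr was the one call (-0.74 ± 0.25, adjusted p = 0.0442), and it was called under 10 of 18 alternatives. Cemip changed after circSlc45a4 knockdown, while the 6 tested genes of the hyaluronan list did not pass the threshold over scramble in the main analysis. Cd44, counted among the other surface matrix receptors, was called higher after circSlc45a4 knockdown (log2 fold change 2.09, adjusted p = 0.044). That call was lost with the Xist covariate and was made under 9 of 18 alternatives.

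**Figure D4:**
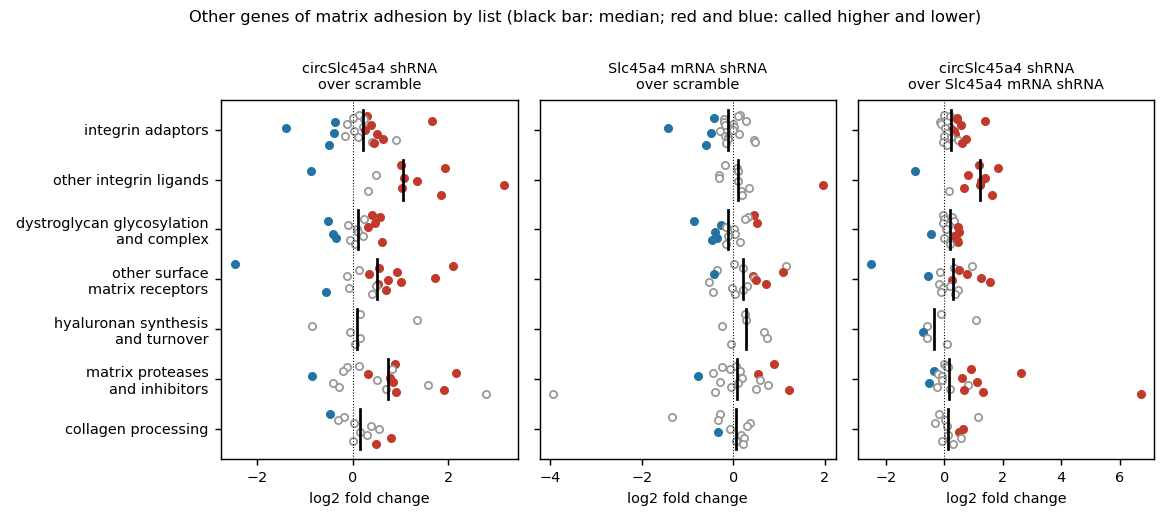
Log2 fold changes of the tested genes of 7 lists of matrix adhesion (points, red for called higher, blue for called lower, open for no call) with the list's median (black bar), for circSlc45a4 knockdown over scramble, Slc45a4 mRNA knockdown over scramble and circSlc45a4 knockdown over Slc45a4 mRNA knockdown. The integrin ligands lie furthest to the right in the first panel, at a median of 1.06, and the x scales differ between panels.

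Markers of apical progenitors, cells that express many of these genes, also moved with the groups. Their 12 markers summed to 1559 to 1702 CPM with circSlc45a4 knockdown, 1003 to 1270 CPM with Slc45a4 mRNA knockdown and 907 to 1184 CPM with scramble, and none was at 0. Of the 12, 8 rose and 0 fell after circSlc45a4 knockdown (median 0.78), or 66.7% higher, against 14.1% of all genes. After Slc45a4 mRNA knockdown 5 rose and 0 fell (median 0.41), or 41.7% higher, against 8.92% of all genes. In the direct comparison 6 were higher and 1 lower, or 58.3% called, against 26.1% of all genes. With the Xist covariate 5 were higher after circSlc45a4 knockdown and 2 after Slc45a4 mRNA knockdown. Fabp7, the brain lipid-binding protein of radial glia, changed with the smallest p, at 1.42 ± 0.12 (adjusted p = 2.88e-06) and 0.56 ± 0.11 (adjusted p = 0.00423). The 10 neuron markers summed to 5577 to 5969 CPM, 5028 to 5800 CPM and 5975 to 7268 CPM in circSlc45a4 knockdown, Slc45a4 mRNA knockdown and scramble. After circSlc45a4 knockdown 2 were higher and 2 lower, or 40% called, against 27.1% of all genes. The part of the cell mix in the changes of the integrin and matrix genes was not tested.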

How the data were processed

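Whole read counts per gene for 53379 gene IDs in 9 libraries were deposited by the authors, without normalization per the file's whole-number values. STAR 2.4.2a, bcl2fastq 2.17.1.14, DESeq2 and the build mm10 are named, with no role or order, per the submitters' processing notes. The counting program, the strand setting and the annotation release are not given in those sources. Gene IDs were joined to GENCODE M21 (GRCm38), which gave a symbol for 53274 and none for 105, and exon lengths and coordinates come from it.

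Low genes were removed with filterByExpr (minimum count 10) in edgeR 4.0.16, library sizes were corrected by TMM factors, and CPM is computed from the corrected sizes. All 9 libraries entered 1 quasi-likelihood fit with group means as terms, which leaves 6 residual degrees of freedom. The common biological coefficient of variation was 13.9%. Each pair of groups was tested 2-sided over all 17760 genes, with Benjamini-Hochberg adjustment and a call at an adjusted p under 0.05. An SE is the size of a log2 fold change over the square root of its F statistic. The fit was tested on simulated counts first. Total counts were 21073174 to 45469298 per library, and the floor of 3 counts covers counting error only, since PCR copies of 1 molecule can be counted more than once. Motif positions in promoters count from the start, and bases before it are negative.

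The genes and all gene lists were chosen with earlier results of these data known. Values per library are given, by rule, for up to 10 called genes of the list with the largest changes in a comparison, for those nearest the threshold, and for Itgb1, Itgb5, Dag1, Lamc1, Col4a1, Col1a1, Fn1, Vcan and Tnc. From other lists up to 3 genes with the smallest p per comparison were named, and all calls where a list had 3 or fewer. Some genes that this rule picks are not reported here. Edil3, C1qa, Esam, Cd44, Ddx3y, Gpc1 in the circSlc45a4 comparison and the genes of other counts of 5 or fewer were named after their values were seen. Alternatives were 2 other scalings, 2 other filters, DESeq2 1.42.0, limma-voom (limma 3.58.1), a replicate block, the Xist level as covariate, the 6 compared libraries alone, and each library left out. The same alternatives were run for genes of the other lists after the data were seen.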

Additional observations from a re-analysis of the deposited data

How the results depend on the processing

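Of the genes called in the main analysis, 12 of 18 (circSlc45a4 knockdown over scramble), 3 of 10 (Slc45a4 mRNA knockdown over scramble) and 11 of 19 (direct comparison) kept their call in all 18 alternatives, and no called gene changed direction. The 12 were Itga2, Itga5, Itga6, Itga9, Itgb8, Lamb2, Col4a5, Tnc, Hmcn1, Ltbp2, Cemip and Sparc. Of the uncalled genes 9, 10 and 4 gained a call in some alternative, and 6, 13 and 9 changed sign.

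The Xist covariate had the largest effect: genes called fell to 1194 in the circSlc45a4 comparison (4814 in the main analysis) and to 735 in the Slc45a4 mRNA comparison (3200), with 0 and 2 list genes lower (3 and 5). Xist is at or near 0 in all scramble libraries, so the covariate and the knockdowns are largely confounded and cannot be told apart. With no filter all 50 genes were tested, 7 were lower after circSlc45a4 knockdown and 10 higher after Slc45a4 mRNA knockdown (5 in the main analysis), and 1 (Nid2) was lower in the direct comparison. Upper-quartile factors, the 1 CPM filter and DESeq2 also gave 1 lower in the direct comparison. It was Spock2 each time, at an adjusted p of 0.0287, 0.0462 and 0.0462, beside 0.0528 in the main analysis.

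Leaving out 1 library gave, in the circSlc45a4 comparison, 3386 to 5548 genes called, 13 to 17 list genes higher and 2 (without circSlc45a4 knockdown replicate 1) to 5 (without Slc45a4 mRNA knockdown replicate 1) lower. In the Slc45a4 mRNA comparison it gave 1760 (without scramble replicate 2) to 3083 genes called, 4 to 6 higher and 5 to 6 lower. In the direct comparison it gave 3059 (without circSlc45a4 knockdown replicate 1) to 4610 genes called, 13 to 20 higher and 0 to 1 lower (without Slc45a4 mRNA knockdown replicate 1 or 2).

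The labels number the replicates 1 to 3 in each group. Same-numbered deviations correlated at 0.083, 0.081 and 0.115 between the knockdowns, where each library correlated best with its own number. They correlated at -0.122, 0.034 and -0.070 between circSlc45a4 knockdown and scramble. Between Slc45a4 mRNA knockdown and scramble the values were -0.141, 0.022 and -0.089. The labels give no batch or pairing, and whether same-numbered knockdown libraries share a batch was not tested. With the replicate block 4412, 2713 and 4189 genes were called in the 3 comparisons, with 15, 4 and 17 list genes higher and 2, 5 and 0 lower. Bcan and Ncan lost their calls in the direct comparison with the block.

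With 3 libraries a group, small changes of low genes are not resolved, and 6 of the 50 genes (Itga7, Itgb3, Col1a1, Col3a1, Acan, Hapln1) were removed by the filter on low counts. P-values measure the spread between these libraries, whose embryos the labels do not list.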

Other observations

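Markers of later cells of the cortical lineage, outside matrix adhesion, are given beside the shares of all genes called. Of 10 neuron markers, 2 were higher and 2 lower after circSlc45a4 knockdown, 1 was higher and 3 were lower after Slc45a4 mRNA knockdown, and 2 were higher and 1 lower in the direct comparison. This is 40%, 40% and 30% called, against 27.1%, 18% and 26.1% of all genes. Map2 rose after circSlc45a4 knockdown (0.73 ± 0.087, adjusted p = 5.16e-05, edgeR), as did Gap43 (0.51 ± 0.10, adjusted p = 0.00275), while Dcx (-0.63 ± 0.11, adjusted p = 0.000701) and Stmn2 (-0.83 ± 0.16, adjusted p = 0.00164) fell. After Slc45a4 mRNA knockdown Map2 rose (0.27 ± 0.086, adjusted p = 0.0428), a call made under 8 of 18 alternatives, while Tubb3 (-0.45 ± 0.12, adjusted p = 0.0179), Dcx (-0.59 ± 0.11, adjusted p = 0.00195) and Stmn2 (-0.98 ± 0.16, adjusted p = 0.000901) fell. With the Xist covariate Map2 after circSlc45a4 knockdown and Stmn2 after Slc45a4 mRNA knockdown kept their calls (adjusted p = 0.00713 and 0.0495), and the other neuron calls over scramble were lost. Dcx encodes doublecortin, a microtubule protein of migrating neurons, and Stmn2 a tubulin-binding protein of growing axons. Stmn2 had 210.3, 266 and 265 CPM with circSlc45a4 knockdown, 173, 274 and 221 CPM with Slc45a4 mRNA knockdown and 518, 424 and 379 CPM with scramble, and the knockdown libraries were all below scramble. Of 6 basal progenitor markers, 0 were higher and 2 lower after circSlc45a4 knockdown, 0 were higher and 1 lower after Slc45a4 mRNA knockdown, and 2 were higher and 2 lower in the direct comparison. This is 33.3%, 16.7% and 66.7% called, against the same 27.1%, 18% and 26.1% of all genes. Eomes (Tbr2), their defining transcription factor, fell after circSlc45a4 knockdown (-0.43 ± 0.084, adjusted p = 0.00223) and had 0.18 ± 0.084 after Slc45a4 mRNA knockdown. Insm1 also fell after circSlc45a4 knockdown (-0.34 ± 0.085, adjusted p = 0.0104), and the Eomes and Insm1 calls over scramble were lost with the Xist covariate (adjusted p = 0.203 and 0.217). Btg2 fell after Slc45a4 mRNA knockdown (-0.80 ± 0.12, adjusted p = 0.000705). In the direct comparison Eomes (-0.60 ± 0.084, adjusted p = 0.000246) and Insm1 (-0.36 ± 0.085, adjusted p = 0.00728) were lower, and Btg2 (0.76 ± 0.12, adjusted p = 0.000708) and Mfap4 (0.65 ± 0.16, adjusted p = 0.00928) were higher.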
